A study of Mus musculus with 6 samples.

Results

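The genes of the ATF4 program and the cytoplasmic aminoacyl-tRNA synthetases were examined in juxtaglomerular (JG) cells against renal mesenchymal stromal cells (MSC). The program was a list of 17 genes named by symbol, of which 16 were measured, and Pycr1 was not analysed here. The synthetases were the 17 genes whose symbol is 1 capital letter followed by ars, with or without a final 1, or Eprs. Together they made 33 of the 18193 genes measured. Each gene was read by the probe set (a group of short oligonucleotides against 1 transcript) with the highest mean intensity over all 6 arrays. The genes were chosen by name, with earlier results of these data known. Each probe set was chosen by that mean intensity, which does not use the sample groups but follows the group with higher values most. Counts over the genes are therefore descriptions.

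The JG cells, which release renin from the wall of the afferent arteriole, were sorted as YFP+ cells from adult C57BL6 mice carrying Ren1c YFP, and 3 samples were measured. The MSC came from mice of the same strain and genotype, were sorted by the surface antigen CD44 and were grown to confluence in culture, and 3 samples were measured. All samples carry the reporter, whose construct the labels do not describe. A growth medium of DMEM with 10% serum is given for the MSC and is repeated on the JG labels, so whether the JG cells were cultured is not settled. Total RNA (100 ng per sample) was hybridised to Affymetrix mouse arrays. Nothing in the labels ties the samples to different mice or cultures, and the p-values measure only the spread between these samples, which may be technical.

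ATF4 is a transcription factor made when the initiation factor eIF2 is phosphorylated, which happens when amino acids are scarce, heme is short or proteins misfold in the endoplasmic reticulum. It pairs with C/EBP and other leucine zipper proteins on composite DNA elements and raises genes that make, import and charge amino acids, together with feedback genes such as Trib3 and Ddit3. Aminoacyl-tRNA synthetases join each amino acid to its tRNA, and many of the cytoplasmic ones are among the genes that ATF4 is known to raise. In the kidney the proximal tubule is a major site of serine synthesis.

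The core of the composite element, TGATGNAA, was searched on both strands of RefSeq promoters (GRCm38.p6, 250 bases before to 50 after each start). All 16 program genes and 10 of the 17 synthetases had a promoter in that set. Cars, Hars, Lars, Nars, Rars, Vars and Wars had none in it. The core was found in 4 of 19 program promoters (Asns, Chac1, Trib3 and Vldlr) and in 5 of 10 synthetase promoters (Aars, Gars, Iars, Tars and Yars), against 3.97% of all 32851 promoters. The stretches below are shown because they hold every match among the members. Capitals mark the 8 bases of the match, which reads as its reverse complement where it lies on the opposite strand, and positions count from the start with no base 0.
Asns, bases -60 to -1, chr6:7693210-7693269, minus strand: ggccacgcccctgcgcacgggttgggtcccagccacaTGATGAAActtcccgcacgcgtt
Chac1, bases -219 to -160, chr2:119351023-119351082, plus strand: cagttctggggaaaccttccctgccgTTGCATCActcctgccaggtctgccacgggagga
Trib3, bases 4 to 33, chr2:152344028-152344057, minus strand: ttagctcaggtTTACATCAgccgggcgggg
Vldlr, bases -226 to -167, chr19:27216794-27216853, plus strand: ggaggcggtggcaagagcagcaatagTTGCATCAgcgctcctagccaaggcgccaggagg
Aars, bases -138 to -79, chr8:111033704-111033763, plus strand: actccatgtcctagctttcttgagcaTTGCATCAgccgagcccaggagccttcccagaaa
Aars, bases -2 to 28, chr8:111033840-111033869, plus strand: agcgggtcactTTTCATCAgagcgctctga
Gars, bases -60 to -1, chr6:55037941-55038000, plus strand: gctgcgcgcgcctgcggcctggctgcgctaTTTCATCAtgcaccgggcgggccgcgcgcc
Iars, bases -4 to 26, chr13:49682126-49682155, plus strand: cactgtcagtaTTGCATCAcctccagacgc
Tars, bases -60 to -1, chr15:11399659-11399718, minus strand: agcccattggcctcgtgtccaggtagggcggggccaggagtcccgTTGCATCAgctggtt
Yars, bases -8 to 22, chr4:129189895-129189924, plus strand: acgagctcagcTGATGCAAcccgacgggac

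The cAMP response element TGACGTCA was in 0 of 19 program and 0 of 10 synthetase promoters, against 1.79% of all. The endoplasmic reticulum stress element (CCAAT, 9 bases of any kind, CCACG) was also in 0 of 19 and 0 of 10, against 0.119% of all. The E-box CACGTG was in 1 of 19 program promoters (Aldh18a1) and 3 of 10 synthetase promoters (Aars, Iars and Tars), against 7.15% of all. No E-box match overlapped a match of the composite core. All motifs were searched on both strands. These matches describe letters in a window and were not tested as binding sites.

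The array medians ran from 27.4 to 36.5 in JG and from 27.3 to 34.1 in MSC. The arrays correlated at 0.797 to 0.882 among JG samples and 0.971 to 0.975 among MSC samples across genes, and JG sample 1 lay nearest to MSC (0.802 to 0.812). JG sample 1 correlated less with JG sample 2 (0.797) than with any MSC sample, and at 0.882 with JG sample 3. Transcripts of other kidney cells were present in the JG samples: summed intensities were 27424.5 to 35186.4 in JG and 309 to 609 in MSC over 8 proximal tubule markers, and 8769.7 to 15258.4 in JG and 38.5 to 59.7 in MSC over 6 markers of the loop and distal tubule. All 8 and all 6 of these were called higher in JG. Over 6 endothelial markers the sums were 598 to 823 in JG and 52.6 to 56.7 in MSC, and over 6 leukocyte markers 1356 to 3835 in JG and 67.2 to 288 in MSC. The 4 measured renin cell markers summed to 1337 to 2788 in JG and 82.1 to 346 in MSC, with 2 called higher (Rgs5 and Rgs2). Rgs5 made most of the JG sums (1105, 2343 and 2120 in JG samples 1, 2 and 3). Gja4 went the other way, with every JG sample below every MSC sample (-0.60 ± 0.26, not called), and Gja5 overlapped. The Gja4 values were dim, 2.98 to 14.4 in JG and 20.7 to 21.7 in MSC, under every array median. The renin gene itself was not analysed here. Over 6 MSC markers the sums were 2886 to 3615 in JG and 6460 to 7524 in MSC, with 2 called lower in JG and 2 higher: Cd44, the antigen used in the MSC sort, averaged 139 ± 17.3 in JG and 974 ± 81.9 in MSC, and Thy1 1272 ± 347 in JG and 151 ± 32.1 in MSC (SD, n = 3 each). No listed marker was at or below 1 on every array. Which cells of the JG samples gave the transcripts described below, and what part the tubule transcripts have in the differences, was not tested.

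Trib3, Asns, Mthfd2, Chac1 and Phgdh, targets of ATF4, were the program genes furthest below MSC in JG, and Rars and Tars the synthetases furthest below. Shmt2 was higher in JG. Of the 33 members, 13 were called lower in JG, 1 was called higher and 19 were not called. A call is an adjusted p under 0.05 from limma, fitted on log2 of the intensity plus 16 for all 18193 genes, and of all genes 7.71% were called lower and 7.7% higher. Because 32 of the 33 members lay at or above the median brightness, the genes of that range (the brighter genes) are the nearer background, and 12.3% of those were called lower and 12.1% higher. The JG samples all lay below the MSC samples for 22 members and all above for 1, while 18.7% of all genes had every JG sample below MSC and 20.2% had every JG sample above. Among the brighter genes these shares were 28.1% and 19.6%. With arrays weighted by how closely they follow the fit, 22 members were called lower, against 16.9% of all genes. JG samples 1 and 2 then had weights of 0.277 and 0.275, against 1.98 for JG sample 3. With 1 in place of 16 added to the intensity, 8 members were called lower, against 5.92% of all genes. The median difference, JG minus MSC on the log2 scale, was -1.56 over the 16 program genes and -1.13 over the 17 synthetases, against 0.07 over all genes and -0.30 over genes at or above the median brightness. In these bulk samples, fewer cells of a type and less RNA per cell cannot be told apart.

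**Figure D1:**
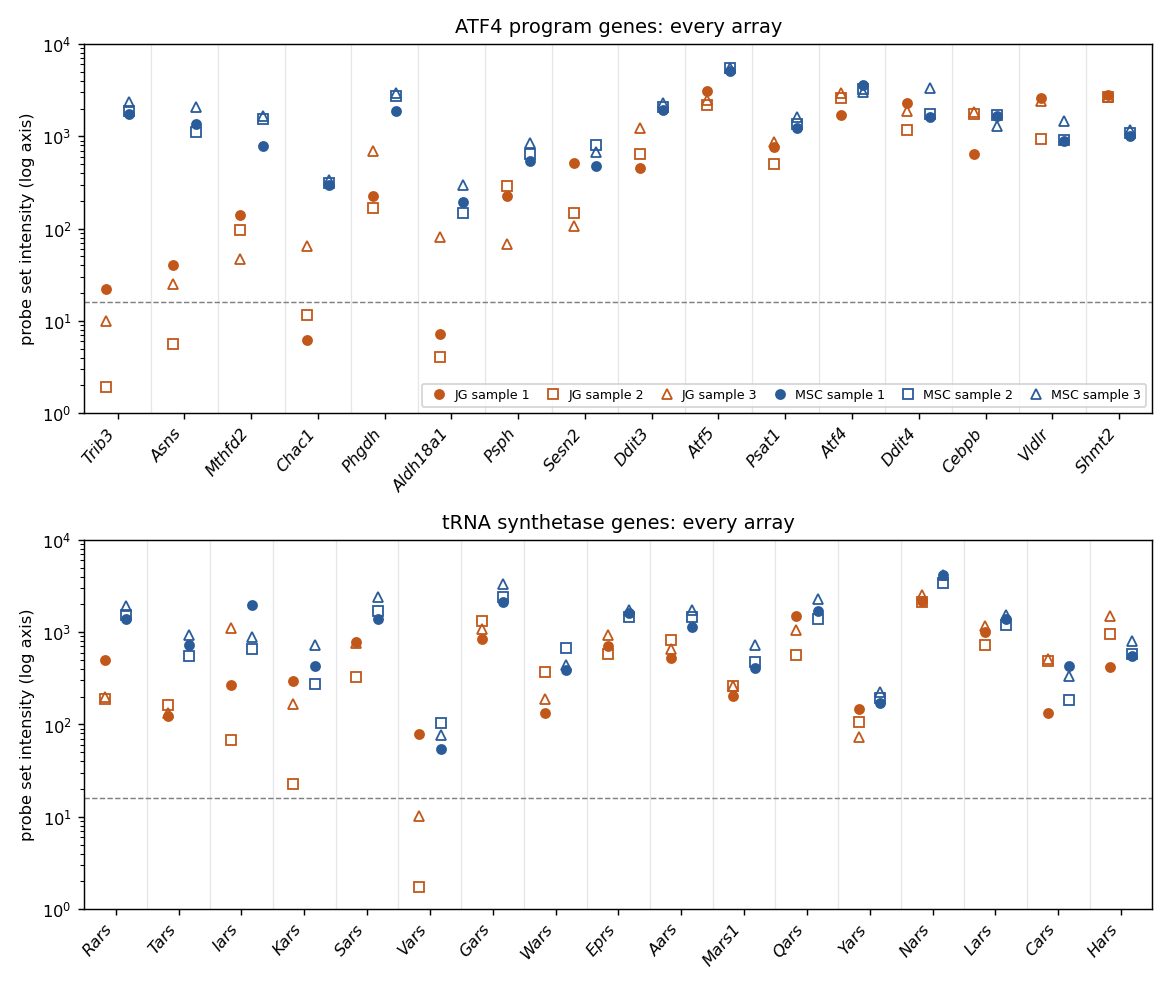
Probe set intensity (log axis) of each member on every array, JG samples left and MSC samples right of each gene's tick, program genes above and synthetases below, each ordered by the JG minus MSC difference; the dashed line is the added 16. Trib3 lies at or below 22.1 in all 3 JG samples and at or above 1751 in all 3 MSC samples, whereas Shmt2 is higher in every JG sample.

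The transcription factors Atf4, Atf5, Ddit3 and Cebpb had differences between -1.56 and -0.27, and Atf5 and Ddit3 were called lower in JG. Atf4, the factor itself, had intensities of 1699, 2573 and 2910 in JG and 3639, 3216 and 3022 in MSC. All JG samples lay below all MSC samples, but by little (log2 difference -0.49 ± 0.28 SE, adjusted p = 0.284). A second Atf4 probe set, which the choice of members did not use, gave 483, 406 and 548 in JG and 1751, 1925 and 2732 in MSC. It was called lower (-2.10 ± 0.27, adjusted p = 0.00594 over all probe sets), while the third and dimmest had 25.7 to 51.3 in JG and 14.8 to 17.9 in MSC, with a difference above 0 that missed the threshold (0.79 ± 0.26, adjusted p = 0.103). The size of any Atf4 difference therefore depends on the probe set read.

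Atf5, a related factor that is translated under the same stress, had 3071, 2170 and 2472 in JG and 5111, 5455 and 5486 in MSC. The groups were apart and the difference was called (-1.07 ± 0.23, adjusted p = 0.0302). Ddit3, the factor CHOP that acts downstream of ATF4, had 455, 636 and 1215 in JG and 1947, 2103 and 2305 in MSC (-1.56 ± 0.38, adjusted p = 0.0429). JG sample 3 stood highest of the JG samples for Ddit3 and still below every MSC sample. A second, dimmer Ddit3 probe set overlapped, with 133, 39.4 and 67.2 in JG and 541, 61.5 and 137 in MSC. It was not called (-1.09 ± 0.77, adjusted p = 0.393 over all probe sets). Cebpb, a C/EBP partner of ATF4, had 636, 1760 and 1821 in JG and 1666, 1685 and 1294 in MSC. Its groups overlapped and it was not called (-0.27 ± 0.45, adjusted p = 0.716).

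Among the feedback and stress-response targets, Trib3 and Chac1 were far lower in JG. Trib3, a pseudokinase that binds ATF4 and limits its activity, had 22.1, 1.92 and 9.97 in JG and 1751, 1885 and 2344 in MSC. The difference was -6.26 ± 0.34 (adjusted p = 0.000162), and because the JG values lie near or under the added 16, the log2 value understates the ratio. Its other probe set had 18.8, 27.1 and 19.4 in JG and 426, 633 and 806 in MSC, and was also called lower (-4.04 ± 0.30, adjusted p = 0.000837 over all probe sets). Chac1, which breaks down glutathione, had 6.23, 11.6 and 65.6 in JG and 295, 309 and 340 in MSC (-3.16 ± 0.50, adjusted p = 0.0103). The JG samples were spread for Chac1, with sample 3 highest, and the MSC samples lay close together. Both genes hold the composite core in the promoters printed above.

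Sesn2 and Ddit4, inhibitors of the growth kinase mTORC1, were not called. Sesn2 had 513, 148 and 106 in JG and 474, 808 and 668 in MSC, with JG sample 1 inside the MSC range (-1.57 ± 0.58, adjusted p = 0.121). Ddit4 had 2296, 1167 and 1882 in JG and 1637, 1727 and 3301 in MSC, and the groups overlapped (-0.29 ± 0.40, adjusted p = 0.653). Vldlr, a lipoprotein receptor that ATF4 can induce, had 2573, 944 and 2420 in JG and 895, 922 and 1482 in MSC with a difference that missed the threshold (0.75 ± 0.46, adjusted p = 0.311). Of its 5 other probe sets 3 were called higher in JG, with differences of 1.80, 2.20 and 2.83, so the call for Vldlr depends on the probe set read. The Vldlr promoter holds the same TTGCATCA as those of Chac1, Aars, Iars and Tars, and the Yars promoter holds its reverse complement, TGATGCAA.

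Of the enzymes of the program that make amino acids and one-carbon units, Asns, Phgdh, Mthfd2 and Aldh18a1 were called lower in JG, Shmt2 was called higher, and Psat1 and Psph missed the threshold. Asns, asparagine synthetase, had 40.5, 5.62 and 25.1 in JG and 1357, 1113 and 2067 in MSC (-5.32 ± 0.43, adjusted p = 0.000787). Its other probe set had 61.8, 26.0 and 118 in JG and 1189, 1255 and 1743 in MSC and was called too (-4.19 ± 0.45, adjusted p = 0.00333 over all probe sets). On both probe sets every JG sample lay far below every MSC sample.

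Of the 3 enzymes that make serine from a glycolytic intermediate, Phgdh, the first, had 223, 169 and 685 in JG and 1862, 2742 and 2973 in MSC (-2.99 ± 0.53, adjusted p = 0.0151). Psat1, the second, had 763, 495 and 875 in JG and 1229, 1372 and 1612 in MSC and missed the threshold (-0.996 ± 0.29, adjusted p = 0.0693). Psph, the third, had 226, 286 and 68.3 in JG and 540, 650 and 852 in MSC and missed it as well (-1.90 ± 0.52, adjusted p = 0.0556). On the probe sets read, the groups did not overlap for any of the 3. The other Psat1 probe set overlapped, with 1333, 75.1 and 75.1 in JG and 1225, 896 and 2255 in MSC. It was not called (-2.61 ± 1.10, adjusted p = 0.171 over all probe sets). The 3 other Phgdh probe sets had differences of -2.95, -2.08 and -0.97 and were not called.

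The mitochondrial one-carbon enzymes of the list went opposite ways. Mthfd2, a mitochondrial folate dehydrogenase that is high in proliferating cells, had 140, 96.7 and 47.0 in JG and 795, 1545 and 1660 in MSC (-3.64 ± 0.45, adjusted p = 0.00392), and its other probe set was called lower too (-2.29 ± 0.28). Shmt2, the mitochondrial enzyme that turns serine into glycine, had 2822, 2686 and 2649 in JG and 1006, 1098 and 1167 in MSC. It was the only member called higher (1.31 ± 0.21, adjusted p = 0.0105), and its JG samples lay within a narrow band. The probe set read and a second one that was called (1.24) both have the suffix x, which marks possible matches to other transcripts. The probe sets read for Trib3, Asns, Phgdh and Aldh18a1, among others, carry that suffix too. Without such probe sets Shmt2 was not called (0.52, adjusted p = 0.451). Trib3 (-4.04), Asns (-4.19) and Aldh18a1 (-2.25) stayed called lower. Phgdh has only probe sets of suffix x and could not be read in that setting.

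Aldh18a1, the enzyme that starts proline synthesis from glutamate, had 7.24, 4.09 and 81.8 in JG and 192, 148 and 294 in MSC (-2.62 ± 0.65, adjusted p = 0.0429). JG sample 3 stood well above the other JG samples and below every MSC sample. Of its 4 other probe sets 2 were called lower (-2.25 and -1.74), and none was called higher.

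**Figure D2:**
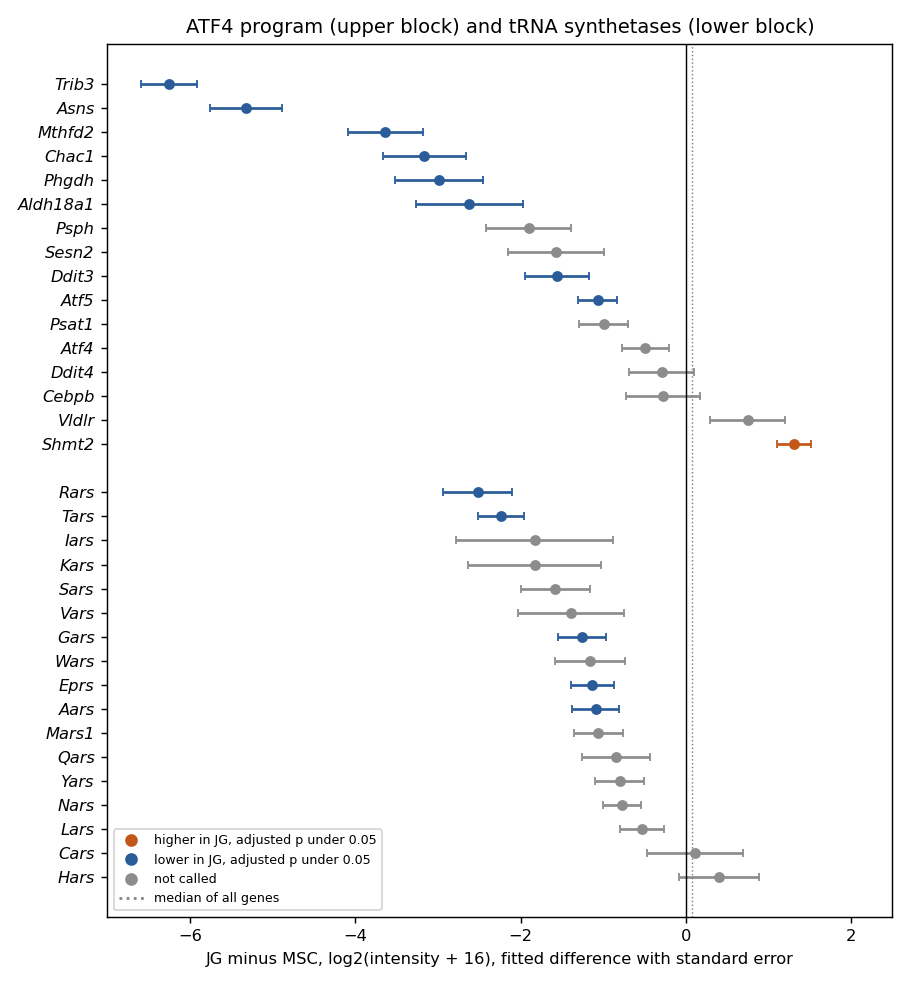
Fitted JG minus MSC difference of each member as log2 of intensity plus 16, with its standard error (3 samples per group); colour gives the limma call and the dotted line the median of all genes. Program differences run from -6.26 for Trib3 to 1.31 for Shmt2, and synthetase differences from -2.52 for Rars to 0.40 for Hars.

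The synthetases formed a narrower band: 15 of 17 had a difference below 0, as did 46.2% of all genes and 58.6% of the brighter genes. Of the 17, 5 were called lower and none higher, against 7.71% of all genes and 12.3% of the brighter genes called lower. The largest differences were those of Rars and Tars. Rars, the arginine enzyme, had 497, 188 and 197 in JG and 1375, 1526 and 1941 in MSC (-2.52 ± 0.41, adjusted p = 0.0115). Tars, the threonine enzyme, had 123, 162 and 134 in JG and 719, 545 and 932 in MSC (-2.24 ± 0.28, adjusted p = 0.00404). For both, each JG sample lay well under every MSC sample.

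Gars, the glycine enzyme, had 846, 1312 and 1084 in JG and 2115, 2377 and 3324 in MSC (-1.25 ± 0.29, adjusted p = 0.0363). Eprs, a fused enzyme for glutamate and proline, had 707, 585 and 926 in JG and 1628, 1468 and 1753 in MSC (-1.13 ± 0.26, adjusted p = 0.0339). Aars, the alanine enzyme, had 531, 815 and 664 in JG and 1130, 1456 and 1757 in MSC (-1.09 ± 0.28, adjusted p = 0.0498). These 3 ran at about the same ratio, with JG means of 0.415, 0.458 and 0.463 of the MSC means. Aars lies just inside the threshold and lost its call under most of the other settings tried. On its second probe set the groups overlapped and it was not called (-1.87 ± 0.81, adjusted p = 0.182 over all probe sets).

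The remaining 12 synthetases were not called, and 10 of them had a difference below 0. Those for which the JG samples all lay below the MSC samples were Sars, Mars1, Wars, Nars, Yars and Lars. Sars, the serine enzyme, had 791, 328 and 767 in JG and 1390, 1697 and 2404 in MSC (-1.58 ± 0.42, adjusted p = 0.0523). Mars1, the methionine enzyme, had 204, 262 and 259 in JG and 405, 469 and 732 in MSC (-1.06 ± 0.30, adjusted p = 0.0602). Wars, Yars, Nars and Lars, for tryptophan, tyrosine, asparagine and leucine, had differences of -1.15, -0.80, -0.78 and -0.53.

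Iars, Kars, Vars and Qars varied most from one JG sample to the next or overlapped with MSC. Iars, the isoleucine enzyme, had 268, 68.3 and 1113 in JG and 1957, 665 and 888 in MSC (-1.83 ± 0.95, adjusted p = 0.241). Its second probe set was steadier, with 206, 92.9 and 231 in JG and 639, 948 and 723 in MSC, and was called lower (-2.10 ± 0.38, adjusted p = 0.0186 over all probe sets). Kars, the lysine enzyme, had 295, 22.4 and 165 in JG and 434, 273 and 731 in MSC (-1.83 ± 0.81, adjusted p = 0.178). Vars, the valine enzyme, was the 1 member under the median brightness, and JG sample 1 lay within the MSC range (79.5 in JG sample 1, 54.7 to 105 in MSC). Qars, the glutamine enzyme, had a difference of -0.84 ± 0.41.

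Cars and Hars, the cysteine and histidine enzymes, did not share the direction of the others. Cars had 132, 485 and 509 in JG and 430, 184 and 331 in MSC (0.11 ± 0.58, adjusted p = 0.914). Its second probe set had 15.0, 375 and 279 in JG and 58.8, 20.6 and 20.0 in MSC. It overlapped too and was not called (1.73 ± 0.98, adjusted p = 0.292 over all probe sets). Hars had 416, 959 and 1501 in JG and 546, 585 and 798 in MSC (0.40 ± 0.48, adjusted p = 0.607), and its second probe set had a difference of -0.48 ± 0.38. Their groups overlapped, and neither sign is separated from the spread between samples.

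**Figure D3:**
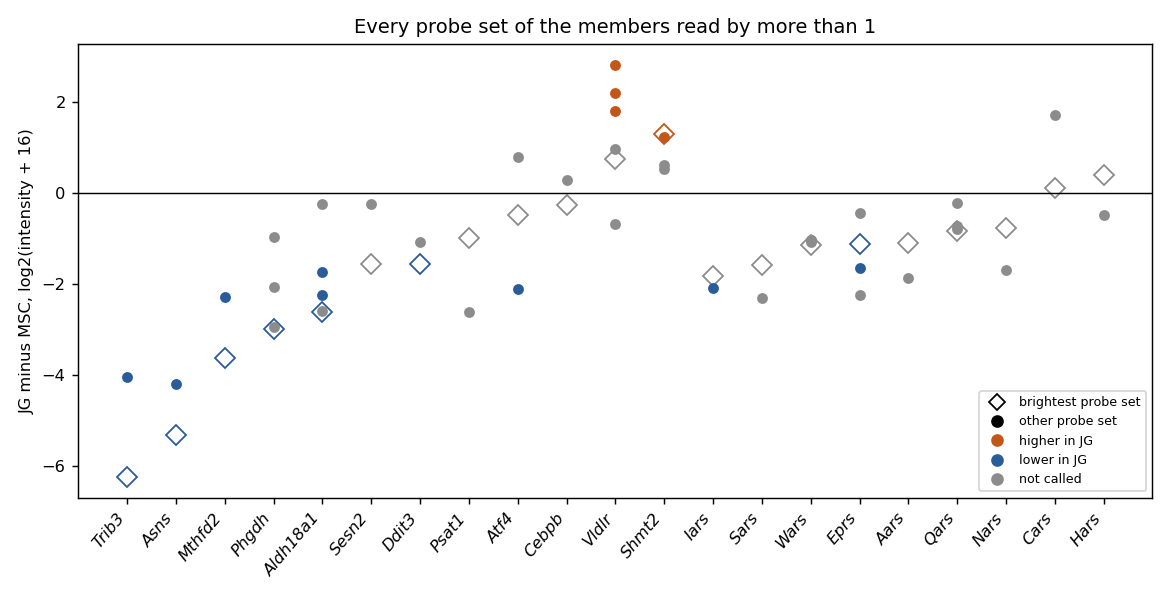
JG minus MSC difference of every probe set of the 21 members read by more than 1, as log2 of intensity plus 16, with calls adjusted over all 34945 probe sets of 1 gene. Diamonds are the brightest probe set and filled circles the others; Trib3, Asns and Mthfd2 have all probe sets below 0 and called, and the Atf4 and Vldlr probe sets spread to both sides of 0.

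The probe sets that the choice of members did not use mostly ran the same way. Of 39 such probe sets over 21 genes, 35 had the sign of the brightest, 8 were called lower and 4 higher, against 7.47% and 5.4% of all 34945 probe sets. Of 9 called members with another probe set, 6 had another one called in the same direction and none had one called in the opposite direction. Probe sets of a gene share the sample, so this is a check of the reading and not of the replicates.

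The JG samples varied more than the MSC samples. The SD on the log2 scale was larger in JG for 26 of 33 members, with a median of 0.70 in JG and 0.34 in MSC. This was near the background: the SD was larger in JG for 78.5% of all genes and 81.6% of the brighter genes, and the median SD of the brighter genes was 0.75 in JG and 0.31 in MSC. JG sample 2 was the lowest of the JG samples for 17 members (51.5%) and sample 3 for 5 (15.2%), near the 54.0% and 16.6% of the brighter genes. The median member difference from the MSC mean was -1.17, -1.44 and -1.11 in JG samples 1, 2 and 3, against -0.14, -0.56 and -0.10 over the brighter genes. In each JG sample the median member lay below MSC.

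Leaving out single samples changed many calls, in fits that have fewer samples to estimate the spread. The 13 members called lower became 16, 12 and 10 without JG samples 1, 2 and 3, and 6, 4 and 4 without MSC samples 1, 2 and 3. The share of all genes called lower became 14.9%, 7.14% and 5.23% without those JG samples and 2.89%, 2.45% and 2.30% without those MSC samples. Trib3, Asns, Mthfd2 and Tars stayed called in all 6 of these fits. Chac1 and Rars lost theirs only without MSC sample 2 (adjusted p = 0.0517 and 0.0552) or 3 (0.0535 and 0.0595). Phgdh and Shmt2 lost theirs without MSC sample 1, 2 or 3 (adjusted p of 0.0501, 0.0719 and 0.0728 for Phgdh, and of 0.0583, 0.0571 and 0.0516 for Shmt2).

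The other called members lost their call without each single MSC sample and without some JG samples. The adjusted p without MSC samples 1, 2 and 3 was 0.103, 0.120 and 0.125 for Atf5, and 0.123, 0.138 and 0.155 for Ddit3. For Aldh18a1 it was 0.128, 0.110 and 0.157, for Gars 0.0840, 0.115 and 0.138, for Eprs 0.119, 0.105 and 0.139, and for Aars 0.0904, 0.160 and 0.183. Without JG sample 3 the calls of Atf5 (0.0741), Gars (0.0844) and Aars (0.109) were lost, and without JG sample 2 those of Ddit3 (0.0859), Aldh18a1 (0.0893) and Eprs (0.0503). Aldh18a1 (0.0625) and Aars (0.0580) also lost theirs without JG sample 1. In each of these fits the difference stayed below 0.

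Without JG sample 1 the calls of Psph (adjusted p = 0.0462), Sesn2 (0.00737), Sars (0.0344), Vars (0.00986) and Yars (0.0391) were gained. Without JG sample 2 those of Psph (0.0407) and Wars (0.0364) were gained. With 1 in place of 16 added to the intensity, the calls of Atf5 (adjusted p = 0.123), Ddit3 (0.0744), Gars (0.0966), Eprs (0.111), Aars (0.130) and Shmt2 (0.0675) were lost. With the probe sets of a gene averaged, Ddit3 (0.0659), Aars (0.0767) and Shmt2 (0.0580) were not called, and Psph (0.0457), Mars1 (0.0436), Nars (0.0391) and Wars (0.0334) were called lower and Vldlr (0.0117) higher. The dimmest genes were also left out (13645 genes kept), with the whole fit run again and the p-values adjusted over the shorter table. This ended the calls of Atf5 (0.0582), Eprs (0.0549) and Aars (0.0697) and added those of Psph (0.0392) and Sars (0.0443). Quantile normalization of the arrays added those of Psat1 (0.0373) and Sars (0.0254) and ended that of Aars (0.0767). Without probe sets of suffix s or x, the calls of Aars (0.173) and Shmt2 (0.451) were lost and those of Atf4, lower (0.00504), and Vldlr, higher (0.00378), were gained. Phgdh was not measured in that setting, because all its probe sets have suffix x.

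Other genes of the pathway were read from 9 lists with 104 measured genes, none of them a member, of which 11 (10.6%) were called lower in JG and 9 (8.65%) higher. These shares were near the background of 7.71% and 7.7% of all genes and 12.3% and 12.1% of the brighter genes, so the counts per list below are descriptions of the genes named. Other cytoplasmic synthetase subunits and scaffolds of the multisynthetase complex had 1 of 6 called lower and none higher, with a list median of -1.38. The cytoplasmic aspartate enzyme was neither a member nor in this list. The gene called was the scaffold Eef1e1, with 119, 50.6 and 39.7 in JG and 252, 341 and 365 in MSC (-2.06 ± 0.39, adjusted p = 0.0181). The synthetases encoded by genes for a mitochondrial enzyme alone had 0 of 16 called lower and 1 called higher in the same fit, with a list median of 0.11. The gene called was Fars2, the phenylalanine enzyme, with 1338, 3284 and 2356 in JG and 269, 333 and 236 in MSC (2.91 ± 0.38, adjusted p = 0.00470). The difference between the cytoplasmic and the mitochondrial set was not tested.

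Upstream of ATF4, the list of eIF2 kinases, phosphatase subunits and eIF2 and eIF2B subunits had 1 of 14 called lower and 1 higher. Eif2s2, the beta subunit of eIF2, was lower (3109 ± 852 in JG, 6619 ± 160 in MSC, SD, n = 3 each). Gcn1, which activates the amino acid sensing kinase, was higher (732 ± 178 in JG, 295 ± 41.4 in MSC). None of the 4 kinases was called, with adjusted p-values from 0.155 to 0.994.

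Among ATF4 partners and other factors, 1 of 11 was called lower and 2 higher. Nupr1, a stress-induced chromatin protein, had 1065, 187 and 730 in JG and 6798, 8207 and 8294 in MSC (-3.83 ± 0.62, adjusted p = 0.0107). Atf3, itself an ATF4 target in many cells, had 145, 430 and 435 in JG and 22.1, 52.2 and 33.1 in MSC, the opposite direction (2.66 ± 0.48, adjusted p = 0.0155). Cebpd, another C/EBP factor, was also higher in JG (1966 ± 424 in JG, 512 ± 261 in MSC).

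Of 9 amino acid carriers known as ATF4 targets, 2 were called lower and none higher. Slc7a5, the light chain of the large neutral amino acid exchanger, had 72.5, 28.4 and 26.8 in JG and 375, 1144 and 955 in MSC (-3.79 ± 0.51, adjusted p = 0.00561). Slc7a1, the cationic amino acid carrier, had a difference of -1.77 ± 0.43. Of 16 other targets 3 were called lower, the hormone gene Stc2 (-3.27), the pro-apoptotic gene Pmaip1 (-2.69) and the mitochondrial protease gene Lonp1 (-1.94). The 1 called higher was Cbs, an enzyme of homocysteine breakdown, with 863, 1872 and 1568 in JG and 47.2, 75.7 and 54.4 in MSC (4.22 ± 0.36, adjusted p = 0.000913).

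The neighbouring serine, glycine and folate enzymes had 1 of 11 called lower and 3 higher. The paired formyltetrahydrofolate dehydrogenases went opposite ways: the mitochondrial Aldh1l2 had 4.62, 7.88 and 12.1 in JG and 992, 611 and 1131 in MSC (-5.23 ± 0.31, adjusted p = 0.000217). The cytosolic Aldh1l1 had 1783, 1099 and 1535 in JG and 14.5, 14.9 and 34.8 in MSC (5.33 ± 0.32, adjusted p = 0.000234). The glycine cleavage gene Gldc (2.70) and the histidine breakdown gene Ftcd (3.78) were the others called higher. Markers of the proximal tubule (8 of 8), loop and distal tubule (6 of 6), collecting duct (3 of 4), endothelium (4 of 6) and leukocytes (4 of 6) were also called higher in JG. Which cells gave the transcripts of these enzymes was not tested.

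Proline enzymes had 1 of 5 called lower and 1 higher. Prodh, which begins proline breakdown, had 572, 302 and 2025 in JG and 6.41, 6.82 and 11.8 in MSC (4.90 ± 0.66, adjusted p = 0.00557), whereas the synthesis gene Aldh18a1 was lower. P4ha1, a collagen prolyl hydroxylase, was lower in JG (-1.96 ± 0.28). The targets of the ATF6 and XBP1 branches of the endoplasmic reticulum stress response had 1 of 16 called lower and none higher, with a list median of -0.05. Manf, a secreted stress protein, was the gene called (-1.17 ± 0.29, adjusted p = 0.0414).

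Of the 20 genes called in these lists, 9 stayed called with any 1 sample left out: Fars2, Slc7a5, Cbs, Pmaip1, Aldh1l1, Aldh1l2, Ftcd, Prodh and P4ha1. Nupr1 lost it without MSC sample 2 (adjusted p = 0.0550) or 3 (0.0548), and Lonp1 without MSC sample 3 (0.0563). Gldc lost it without MSC sample 1, 2 or 3 (0.0618, 0.0539 and 0.0588). Atf3 lost it without JG sample 3 (0.0518) or MSC sample 1 (0.0706) or 3 (0.0707), and Cebpd without JG sample 2 (0.0555) or 3 (0.0764) or MSC sample 1 (0.0951) or 3 (0.0795). Eef1e1 and Stc2 lost it without JG sample 3 (0.0516 and 0.0685) or MSC sample 1 (0.0568 and 0.0832), 2 (0.0829 and 0.107) or 3 (0.0853 and 0.108). Eif2s2, Gcn1, Slc7a1 and Manf lost it without JG sample 2 (0.0604, 0.0567, 0.0577 and 0.0544) or 3 (0.0963, 0.0848, 0.102 and 0.0998). Without MSC samples 1, 2 and 3 it was lost for Eif2s2 (0.124, 0.133 and 0.144), Gcn1 (0.119, 0.127 and 0.0909) and Slc7a1 (0.0904, 0.141 and 0.155), and for Manf without MSC sample 2 or 3 (0.151 and 0.160).

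**Figure D4:**
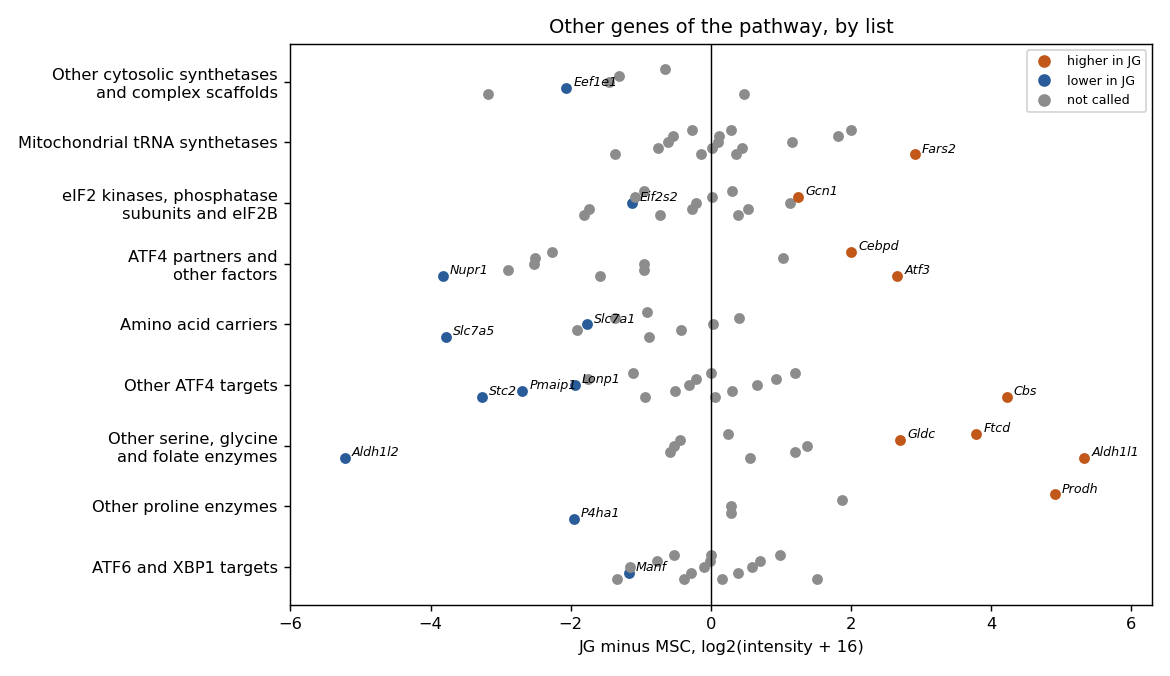
JG minus MSC difference of each measured gene of the 9 pathway lists, as log2 of intensity plus 16; called genes are coloured and named. Called genes lie on both sides of 0, from -5.23 for Aldh1l2 to 5.33 for Aldh1l1, and 84 of the 104 genes were not called.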

How the data were processed

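Gene expression was measured on single-channel Affymetrix arrays in 3 JG and 3 MSC samples, grouped by their titles. The deposited table holds a linear intensity for 45037 probe sets, with no detection calls. The authors' probe summary and array scaling are not given in the sources used here. The number of arrays limits the precision. The platform annotation paired 34945 probe sets with 1 gene. Probe sets paired with several genes (932) or none (9160) were not used. Values entered limma 3.58.1 (R 4.3.3; lmFit and eBayes, no covariates) as log2 of the intensity plus 16, unfiltered, with Benjamini-Hochberg adjustment over all genes, or over all probe sets where stated. The fit was tested on simulated data. The members and lists were chosen with earlier results of these data known. Members may all be named, and of each list up to 4 called genes in each direction were named. Symbols were checked against RefSeq GRCm38.p6, the source of the promoter sequences, and 0 changed. A planned comparison of protein sequences was not run. Alternatives changed the normalization, pseudocount, filter, probe set rule, variance prior, array weights, replicate block and samples included. Figures were drawn with matplotlib 3.10.9.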

Additional observations from a re-analysis of the deposited data

How the results depend on the processing

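The median differences of the program genes and of the synthetases stayed below 0 in every alternative run. Array weights raised the genes called to 6429, the members called lower to 22 and the synthetases called lower to 11, against 2803, 13 and 5. The weights were 0.277, 0.275 and 1.98 for JG samples 1, 2 and 3, and 1.58 to 2.14 for the MSC samples. The JG side of that fit therefore rests mostly on JG sample 3. With a pseudocount of 1, 8 members and 2 synthetases were called lower and 0 members higher. Same-numbered samples did not deviate together from their group means (correlations -0.199, -0.008 and -0.011, against -0.122 to 0.128 for other pairs). Deviations from a mean of 3 samples tie these correlations to each other, so they cannot exclude a pairing. With the replicate block 1594 genes were called, 8 members and 2 synthetases lower and 0 members higher. Of all genes, 3.86% were called lower and 4.90% higher in that setting. The synthetase median was -0.996 with a pseudocount of 64 and -1.253 with a gene's probe sets averaged. The program median was -1.902 without probe sets of suffix s or x, a setting in which Phgdh was not measured. With 1 sample left out, 1149 to 5301 genes were called, with 4 to 16 members lower and 0 to 1 higher, 3 to 9 program genes lower and 1 to 7 synthetases lower. The program median then ran from -1.696 to -1.251 and the synthetase median from -1.256 to -0.954. The sign turned for 4 members that were never called: Cebpb (0.006 with probe sets averaged, 0.077 with array weights, and -0.529 to 0.218 with 1 sample left out), Hars (-0.037 with probe sets averaged, -0.004 to 0.903), Cars (-0.213 to 0.708) and Ddit4 (-0.502 to 0.029). The cause was not tested. Choosing probe sets by the mean log2 value, an alternative added after seeing the data, gave 2790 genes and the same counts of members. It read Asns by its other probe set, with a difference of -4.194 in place of -5.324. The comparison of protein sequences was not run. Dim JG values, such as those of Trib3 and Asns, limit the fold that can be given.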
